A study of Mus musculus with 5 samples.

Results

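The Reg genes encode small secreted proteins of the C-type lectin fold, which were named after their appearance in regenerating pancreatic islets. Members of the family Reg1, Reg2, Reg3a, Reg3b, Reg3d, Reg3g and Reg4 were taken by gene name from the array tables. All 7 genes were found, each with 1 probe printed as 1 spot, among 31829 gene names and 39429 probes, and 0 further probes were described as regenerating islet genes.

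MIN6, an insulin-secreting mouse insulinoma line used as a beta cell model, had received exosomes, the small vesicles that cells release, collected by ultracentrifugation from mouse muscle kept ex vivo. In the EXO-STD group (n = 2 arrays) the muscle came from mice on a standard diet, and in the EXO-HP group (n = 3 arrays) from mice on a high fat diet, so that both groups received muscle vesicles and neither went without them. RNA was measured on 1-colour Agilent arrays, 1 array per sample. The sources used here give no strain, age, vesicle dose or time of exposure. The titles call the replicates biological without saying whether they were separate cultures, so each p-value rests only on how these samples differed, which may be technical. Arrays are written here as STD 1 and STD 2 for the EXO-STD replicates and as HP 1, HP 2 and HP 3 for the EXO-HP replicates. STD 1, STD 2 and HP 1 shared slide 1 and scan 1, and the other two shared slide 2 and scan 2. All 15 of 15 beta cell markers, among them Ins1, Ins2 and Iapp, were well above background on all 5 arrays. So were 68.4% of all probes, 16 of 24 acinar markers and 10 of 12 gut epithelium markers, so that detection alone cannot settle the labelled cell type. On the normalised log2 scale used below, Ins1 and Ins2 averaged 7.45 and 7.40 in EXO-STD. Gcg, a marker of other islet cells, averaged 5.31 there, above the beta cell markers Pdx1 at 1.89 and Ucn3 at -4.19.

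In the pancreas Reg proteins are products mainly of the acinar cells, the exocrine cells that make digestive enzymes, and in the gut several of them are made by epithelial cells. Reg genes are switched on in injury and inflammation, for which cytokines such as interleukin 6 and interleukin 22 and the transcription factor STAT3 are a known route. Extl3, a membrane glycosyltransferase, has been put forward as a Reg receptor. The family was chosen by its gene names, with measured values of this contrast known, among them the difference of Reg2 between EXO-HP and EXO-STD on these arrays. Differences of the Reg genes between groups are therefore described here without a test.

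The probes are 60 bases long and lie, for 6 members, in 1 gene cluster on chromosome 6 that spans 93.2 kb between the outermost probes, in the order Reg3b, Reg3d, Reg3a, Reg2, Reg1 and Reg3g. Related genes can share signal when the probe of one is like the transcript of another. Here probes were compared only with probes and not with transcripts, so that shared signal between members was not tested. The probes of the 3 members that passed the filter on dim signals and that of Reg4 are shown by their first 30 bases. They are given in the orientation of the array tables.
Reg1: ggaccatctatcaaaagcaaattagatcct
Reg2: acagtactcctttgtctgcaagttcagagc
Reg3d: gtgtattctctggggactctggcctaagga
Reg4: gcattgcgctgagatgaaccccaaggataa
Over the full probes, the longest run of bases shared by any of the 21 pairs of members was 7 on the same strand and 8 between opposite strands. None of the 7 probes shared a run of 20 bases with any other probe of the array (0 probes for each member). The share of G and C lay between 38.3% and 45.0%.

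On the mm9 build of the array design, the Reg1 probe lay at chr6:78378527-78378586 on the plus strand and the Reg2 probe at chr6:78357959-78358018 on the plus strand. The Reg3d probe lay at chr6:78325868-78325927 on the minus strand, and that of Reg3b at chr6:78323323-78323382 on the plus strand. Reg3a was measured at chr6:78333635-78333694 on the plus strand and Reg3g at chr6:78416420-78416479 on the minus strand. The Reg4 probe covered chr3:98037005-98040251, a span of 3247 bases for 60 probe bases, so that its bases are not contiguous in the genome. Exon and UTR annotation was not used here.

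Detection of the Reg genes differed between members and between arrays. A spot was taken as detected where the extraction software called it well above background. Of the 35 Reg signals (7 probes on 5 arrays), 15 were well above background and 10 were surrogate values, which the software sets where a signal does not exceed background. Reg3d, a relative of the islet neogenesis protein INGAP, was the only member well above background on all 5 arrays, as were 68.4% of all probes. Reg1, the first member named from regenerating islets, was so on 4 arrays and Reg2 on 2. Reg4, a member made in the gut, was detected on 2 arrays, and Reg3a and the antimicrobial gut lectin Reg3g on 1 array each. Reg3b, known also as pancreatitis-associated protein, reached that level on 0 arrays. Detection on at least 1 array therefore held for 6 of 7 members, against 93% of all probes.

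The arrays differed in what they detected. HP 2 had 6 of the 7 members well above background, against 2 on STD 1, 3 on STD 2, 1 on HP 1 and 3 on HP 3. The same array detected 91.7% of all probes, against 71.5% to 81.4% on the other 4. Without HP 2, 4 members were detected on at least 1 array. The lowest processed signal that was well above background was 21.8, 32.7 and 20.2 intensity units on the slide 1 arrays in the order STD 1, STD 2 and HP 1, and 18.1 on HP 2 and 14.1 on HP 3, so that the lowest detected signals lay on slide 2.

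**Figure D1:**
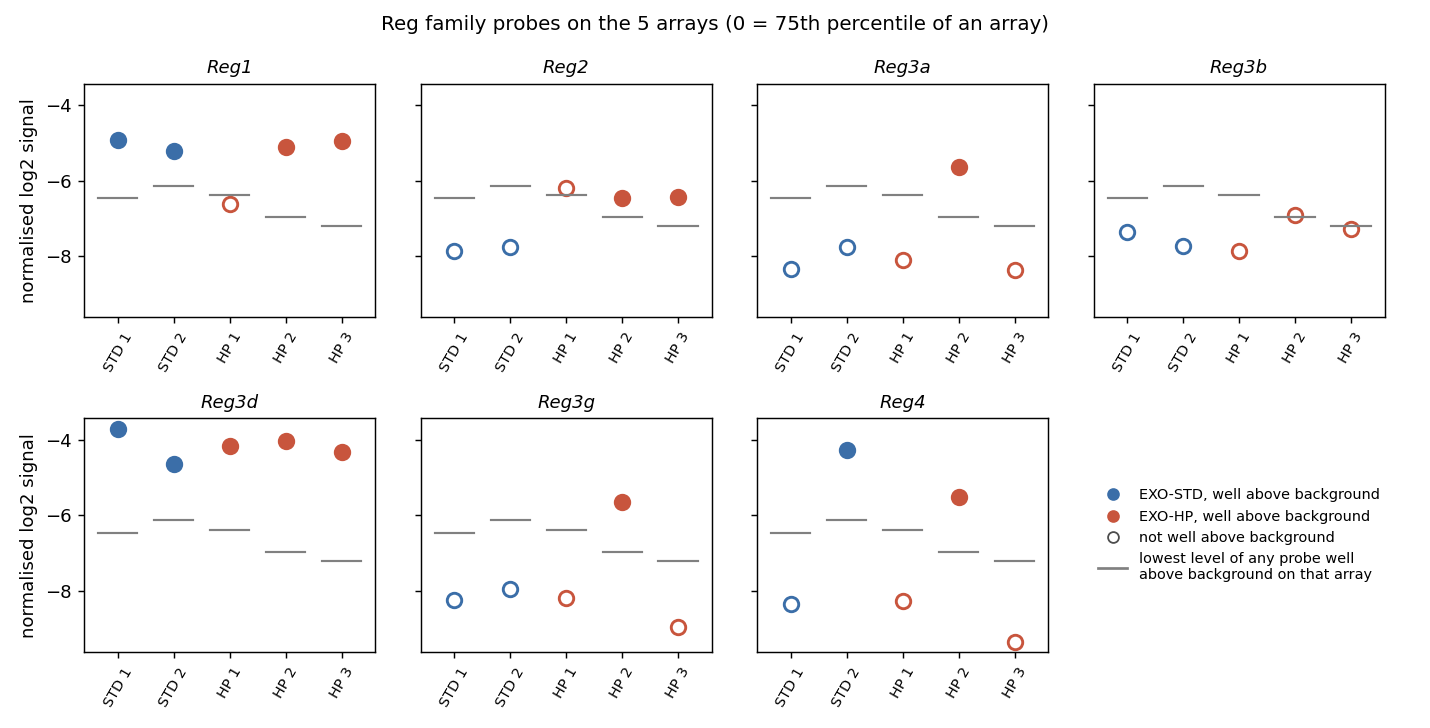
Normalised log2 signal of each Reg probe (vertical axis; 0 is the 75th percentile of an array) on the 5 arrays (horizontal axis), blue for EXO-STD and red for EXO-HP, filled where well above background, with a grey bar at the lowest level of any probe well above background on that array. Reg3d is filled on all 5 arrays, Reg2 is filled on HP 2 and HP 3 only, and Reg3a and Reg3g are filled on HP 2 only.

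In the main processing, Reg2 was the one member whose groups did not overlap, with every EXO-HP array above both EXO-STD arrays. Reg2 is the second of the Reg1-type proteins, which in mouse are both made by exocrine pancreas. Its processed signal, with the error given by the software, was 8.19 ± 5.66 and 10.5 ± 10.5 on STD 1 and STD 2, the second being a surrogate value. On HP 1, HP 2 and HP 3 it was 23.0 ± 6.12, 25.8 ± 5.36 and 23.9 ± 4.36. The 3 EXO-HP signals differed from each other by less than their errors, and those on HP 2 and HP 3 were well above background, whereas that on HP 1, of like size, was not. Of all probes, 5.59% were, like Reg2, well above background on both slide 2 arrays and on none of slide 1. The plain mean intensity of the spot, before any correction, kept this order, with 53.7 and 62.7 in EXO-STD and 70.9, 75.4 and 70.3 in EXO-HP. The local background was 24.0 and 28.5 in EXO-STD and 29.5, 24.0 and 21.0 in EXO-HP.

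On the normalised log2 scale Reg2 averaged -7.82 ± 0.07 (SD, n = 2) for EXO-STD against -6.36 ± 0.15 (SD, n = 3) for EXO-HP. The difference of 1.45 ± 0.20 (limma SE) is not given as a fold, because no EXO-STD array was well above background and the EXO-HP mean did not exceed the level that such a signal would have needed there. On slide 1 alone, where arrays of both groups lay, HP 1 stood 1.62 above the EXO-STD mean. In 15.1% of the tested probes every EXO-HP array lay above both EXO-STD arrays, and in 17.9% the groups did not overlap in either direction. Among the 2319 tested probes with the detection of Reg2 (0 EXO-STD and exactly 2 EXO-HP arrays well above background), which passed the filter through EXO-HP, 37.3% had all EXO-HP arrays higher and the median difference was 1.08. With limma, 0 of the 31943 tested probes passed adjusted p 0.05 (the smallest adjusted p was 0.807), and 1797 (5.63%) had an unadjusted p under 0.05. Of the 1797, 95.8% were higher in EXO-HP, a share that was 83.9% with median scaling, 74.6% with quantile normalisation and 73.2% in the authors' deposited table.

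The size for Reg2 depended on the processing. It was 0.27 with normexp, 0.64 with quantile normalisation and 1.28 with median scaling. In the authors' deposited table Reg2 had log2 values of 5.50 and 5.19 in EXO-STD and 5.77, 5.40 and 6.01 in EXO-HP, a difference of 0.38. The groups overlapped in that table, with normexp and with quantile normalisation, and did not overlap with median scaling. With normexp, the 2319 probes of the same detection had a median difference of 0.20.

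In processed signal, Reg1 was lower on 1 EXO-HP array and about level on the other 4 arrays. Its processed signal was 62.7 ± 8.53 and 61.6 ± 11.1 on STD 1 and STD 2, 66.8 ± 7.67 on HP 3 and 65.7 ± 8.01 on HP 2, all well above background. On HP 1 it was 17.2 ± 5.62 and not well above background. The gap to that array exceeded the software errors, while the other 4 signals differed by less than theirs. The plain mean intensity gave the same picture, with 68.0 on HP 1 and 106 to 118 on the other arrays, at a local background between 26.0 and 30.5 on all 5.

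Reg1 averaged -5.07 ± 0.20 (SD, n = 2) for EXO-STD against -5.56 ± 0.92 (SD, n = 3) for EXO-HP on the normalised log2 scale, a difference of -0.49 ± 0.54 (limma SE), and the groups overlapped. Without HP 1 the difference was 0.04, so that in the main processing it rests on that array. Within slide 1 it was -1.54. In the authors' deposited table Reg1 had 6.72 and 6.45 in EXO-STD and 5.79, 5.96 and 6.63 in EXO-HP, where HP 2 also lay below both EXO-STD arrays. So it did with quantile normalisation, with HP 1 at 4.68, HP 2 at 4.97 and the other arrays between 5.90 and 6.33. With normexp HP 1 was not set apart, at -4.12, with HP 2 at -4.15 and the other arrays between -4.03 and -3.87. HP 1 also had the highest summed level of the skeletal muscle markers measured, 2.90 times an array's 75th percentile against 0.845 to 1.29 on the other arrays, and the part of this in the Reg1 signal was not tested.

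**Figure D2:**
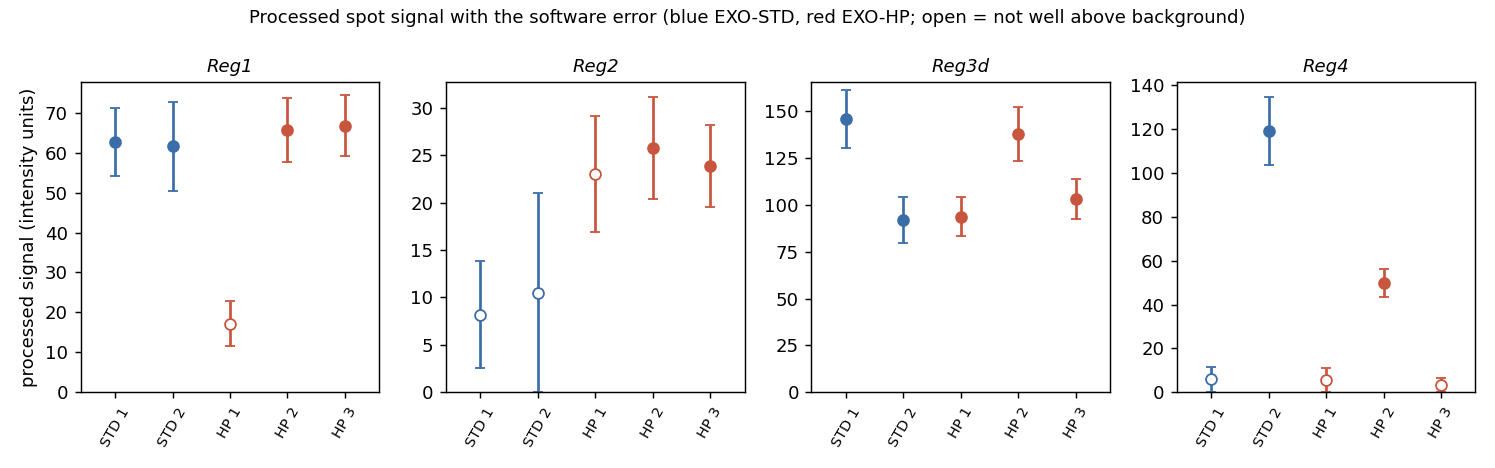
Processed signal in intensity units (vertical axis, from 0) of the Reg1, Reg2, Reg3d and Reg4 spots on the 5 arrays (horizontal axis), with the error given by the extraction software as bars; blue is EXO-STD, red EXO-HP, and open points were not well above background. Reg1 is at 17.2 on HP 1, the 3 Reg2 signals of EXO-HP lie between 23.0 and 25.8, and Reg4 reaches 119 on STD 2.

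Reg3d, the member detected throughout, had the same mean in both groups. Its processed signal was 146 ± 15.4 and 92.1 ± 12.4 on STD 1 and STD 2 and 93.7 ± 10.4, 138 ± 14.3 and 103 ± 10.7 on HP 1, HP 2 and HP 3. The arrays fell into a brighter pair, STD 1 and HP 2, and 3 dimmer ones that differed by about their errors or less, so that the groups overlapped. On the normalised log2 scale the mean was -4.17 ± 0.65 (SD, n = 2) for EXO-STD and that of EXO-HP was -4.18 ± 0.15 (SD, n = 3). The difference was -0.01 ± 0.32 (limma SE), and it was 0.46 without STD 1 and -0.47 without STD 2, so that its sign rests on single arrays. Of the 3 tested Reg probes, Reg1 and Reg3d had the lower mean in EXO-HP, as did 37.1% of all tested probes.

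Reg3a and Reg3g, which passed no filter and were not tested, were well above background on a single array, HP 2. Reg3a read 5.93 ± 5.91 and 10.6 ± 10.5 on STD 1 and STD 2 and 6.10 ± 6.08 and 6.30 ± 4.11 on HP 1 and HP 3, against 45.8 ± 6.71 on HP 2. Reg3g read 6.39 ± 6.37 and 9.19 ± 9.14 in EXO-STD and 5.80 ± 5.77 and 4.18 ± 3.83 on HP 1 and HP 3, against 44.9 ± 6.28 on HP 2. For both, the other 4 signals were about as large as their errors. Of all probes, 9.65% were well above background on HP 2 and on no other array, and the part of that array's wider detection in the Reg3a and Reg3g signals was not tested. In EXO-STD 0 of 2 arrays detected either gene, and no fold is given because the EXO-HP means did not exceed the level that detection would have needed in EXO-STD. Within slide 1, HP 1 differed from the EXO-STD mean by -0.06 (log2) for Reg3a and -0.09 for Reg3g.

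Reg3b stayed between 7.24 ± 5.10 and 18.9 ± 4.58 intensity units over the 5 arrays, with its lowest signal on HP 1 and its highest on HP 2. It exceeded background by the software's weaker criterion (positive and significant) on all 5 arrays, but was well above background on none. Its groups overlapped, and both were below the level of detection, so no fold is given.

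Reg4 was high on 1 array of each group. Its processed signal was 5.85 ± 5.82 on STD 1 and 119 ± 15.6 on STD 2, and 5.49 ± 5.47, 49.9 ± 6.41 and 3.20 ± 3.19 on HP 1, HP 2 and HP 3. Replicate 2 of each group was well above background and the other 3 arrays held surrogate values, so that the groups overlapped. On the normalised log2 scale the SD was 2.89 in EXO-STD (n = 2) and 1.98 in EXO-HP (n = 3), larger than the difference of -1.39 between the means, which was -1.95 within slide 1. The local background of the Reg4 spot was 62.0 on STD 2, above 98.7% of the spots of that array, and 26.0 to 29.0 on the other arrays. The 40 spots around it had a median local background of 62.0 on that array and of 26.0 to 30.8 on the others, and their own mean intensities stood 0.59 (log2, median) above those of the other arrays. With normexp and in the authors' deposited table, both of which take local background into account, Reg4 was still highest on STD 2, at -3.81 against -4.66 on STD 1 and at 6.78 against 5.04. The part of the raised background in this signal was not tested.

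Read over the 5 processings compared, the sign of the difference was positive for Reg2, Reg3a and Reg3g and negative for Reg1, Reg3d and Reg4 in all 5, and it turned for Reg3b, from 0.20 in the main processing to -0.44 with quantile normalisation. In the authors' deposited table the groups did not overlap for Reg3a, higher in EXO-HP by 0.53, and for Reg3b, lower by 0.27, neither of which was tested. Of the 7376 probes that failed the filter, 6.41% had all EXO-HP arrays higher in that table and 6.77% had all lower.

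**Figure D3:**
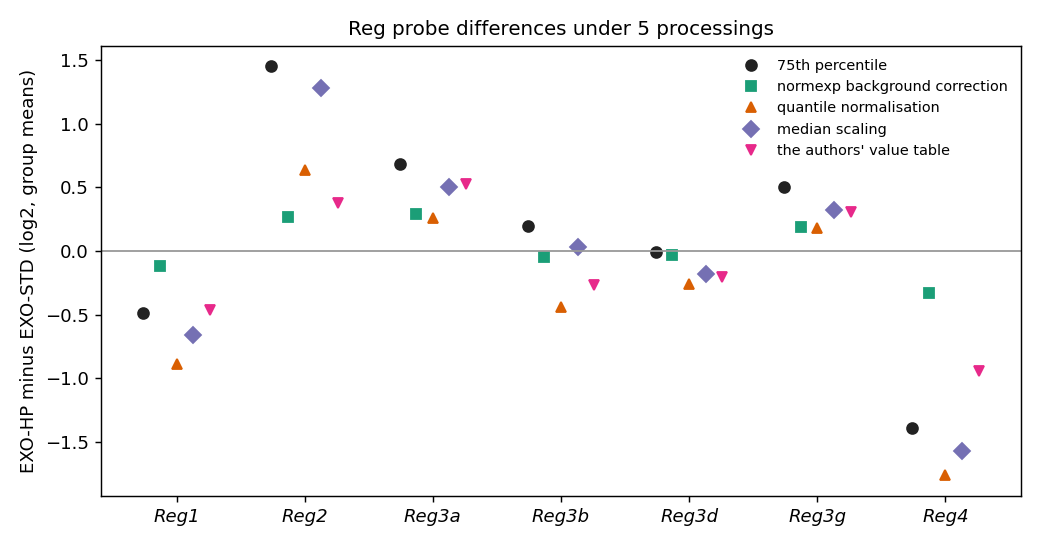
Difference of group means, EXO-HP minus EXO-STD, on the log2 scale (vertical axis) of the 7 Reg probes (horizontal axis) under 5 processings, shown by symbol; no error is drawn. The Reg2 difference ranges from 0.27 to 1.45 and that of Reg3d stays between -0.26 and -0.01.

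The proposed receptor and the signalling genes linked to Reg proteins were detected on all 5 arrays, 7 of 7 genes, and 0 of them passed the test, as did 0 of all tested probes. Of these, 3 had a higher and 4 a lower mean in EXO-HP, with a median difference of -0.01 (1 higher and 6 lower with median scaling), against 62.9% higher and a median of 0.08 over all tested probes. Extl3 averaged 1.82 ± 0.08 (SD, n = 2) for EXO-STD against 1.71 ± 0.12 (SD, n = 3) for EXO-HP, a difference of -0.11 ± 0.19 (SE). Map2k7, a kinase upstream of JNK, differed by 0.01 ± 0.23, and Mapk8, which encodes JNK1, by -0.07 ± 0.32, with its 3 probes between -0.14 and 0.04.

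The receptors and transducers of the cytokine route to Reg genes were likewise expressed, with 15 of 16 well above background on all 5 arrays, and 0 of 16 passed the test. Of the 16, 11 were higher and 5 lower in EXO-HP, with a median difference of 0.06, which was -0.11 with median scaling and 0.00 in the authors' deposited table. Il6ra, the interleukin 6 receptor, had a difference of 0.21 ± 0.26 (SE), and its signalling partner Il6st, gp130, had 0.07 ± 0.20. Il22ra1, a chain of the interleukin 22 receptor, was lower on every EXO-HP array, at -3.24 and -3.71 on STD 1 and STD 2 and -4.04, -4.51 and -3.78 on HP 1, HP 2 and HP 3, a difference of -0.63 ± 0.30 (limma adjusted p = 0.927). In 2.74% of the tested probes all EXO-HP arrays lay below both EXO-STD arrays. Every EXO-HP array was higher for the adaptor Myd88, by 0.17 ± 0.19 (limma adjusted p = 1.00), and for Osmr, the oncostatin M receptor, 2 of 16 genes, as in 15.1% of all tested probes. Osmr, which passed the filter only through EXO-HP, was well above background on 0 of 2 EXO-STD and 2 of 3 EXO-HP arrays, and no fold is given because its EXO-HP mean did not exceed the level that detection would have needed in EXO-STD.

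Since Reg1 and Reg2 are acinar products in the pancreas, markers of acinar cells were read beside them. Of 24 acinar genes measured, 16 were well above background on all 5 arrays, 1 (Pnlip, pancreatic lipase) on none, and 20 were tested. Of the 20, 18 had a higher and 2 a lower mean in EXO-HP, with a median difference of 0.33, and 0 passed the test. Of the 18, 4 were well above background on no EXO-STD array and passed the filter only through EXO-HP, which favours a higher mean there. Among the other 16 genes, 14 were higher, with a median of 0.19. The count was 18 of 20 with normexp (median 0.15), 14 with median scaling (0.16), 13 in the authors' deposited table (0.09) and 12 with quantile normalisation (0.14). Over all tested probes the share higher was 60.4%, 35.8%, 45.5% and 46.9% under the same 4 processings. The median of all tested probes moved from 0.08 to -0.10 with median scaling. In bulk RNA, more cells of a type and more RNA per cell cannot be told apart.

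Ctrl, a chymotrypsin-like protease, had -3.57 and -3.21 on STD 1 and STD 2 and -2.50, -2.49 and -2.28 on HP 1, HP 2 and HP 3, a difference of 0.97 ± 0.21 (limma adjusted p = 0.879). Sycn, syncollin of the zymogen granule, had -3.76 and -3.64 in EXO-STD and -3.09, -1.90 and -2.10 in EXO-HP, a difference of 1.33 ± 0.39 (limma adjusted p = 0.879). Within slide 1 the difference was 0.89 for Ctrl and 0.60 for Sycn. Clps, colipase, at 0.45 ± 0.21, and Rbpjl, a subunit of the acinar transcription factor PTF1, at 0.42 ± 0.21, also had groups that did not overlap. Amy2a5, a pancreatic amylase, comes from a family of near-identical copies that the probe may not tell apart. It was well above background on 0 of 2 EXO-STD and 3 of 3 EXO-HP arrays. Its group means differed by 0.81 ± 0.34 (limma adjusted p = 0.897). With dim EXO-STD signals raised to the lowest detected one, its EXO-HP mean was 1.40-fold above EXO-STD, a value that was not tested. The carboxypeptidase genes Cpa1 and Cpb1 were detected on 0 of 2 EXO-STD arrays and on 2 of 3 EXO-HP arrays. On the same reckoning their EXO-HP means were 1.52-fold and 1.55-fold above EXO-STD, but the groups overlapped for both genes. Cpa1 had -6.33 on HP 1 and -6.21 on STD 2, and its group means differed by 0.73 ± 0.43 (limma adjusted p = 0.985). Amy2a5, Cpa1 and Cpb1 passed the filter on dim signals only through EXO-HP. Every EXO-HP array was higher for 5 of the 20 tested acinar genes, Amy2a5 among them, against 15.1% of all tested probes. The same held for 5 of 15 beta cell and 4 of 11 skeletal muscle markers tested, so that it was not particular to acinar genes. It held for 2 of 11 gut epithelium, 1 of 6 other islet and 0 of 6 duct markers tested. Cpb1 was lowest on HP 1, at -8.31, against -4.47 on HP 2 and -4.22 on HP 3 (limma adjusted p = 1.00), and within slide 1 the difference was 0.09 for Cpa1 and -0.71 for Cpb1.

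The acinar genes stood highest on HP 2, the array on which Reg3a and Reg3g were detected. Relative to the EXO-STD mean, the median of the 20 genes was 0.27 for HP 1, 0.72 for HP 2 and 0.12 for HP 3. The median of all tested probes was also highest on HP 2, at 0.18 against 0.05 and 0.06, and so was that of the gut epithelium markers, at 0.55 against -0.03 and -0.26. The acinar median was 0.27 without HP 2, with 16 of 20 higher. Their summed level, in multiples of an array's 75th percentile, was 7.63 to 8.81 in EXO-STD and 8.31 to 10.1 in EXO-HP, so that the groups overlapped. The Reg2 signals on these 3 arrays, 23.0, 25.8 and 23.9 intensity units, differed by less than their errors and give no order, and the part of acinar RNA in them was not tested.

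**Figure D4:**
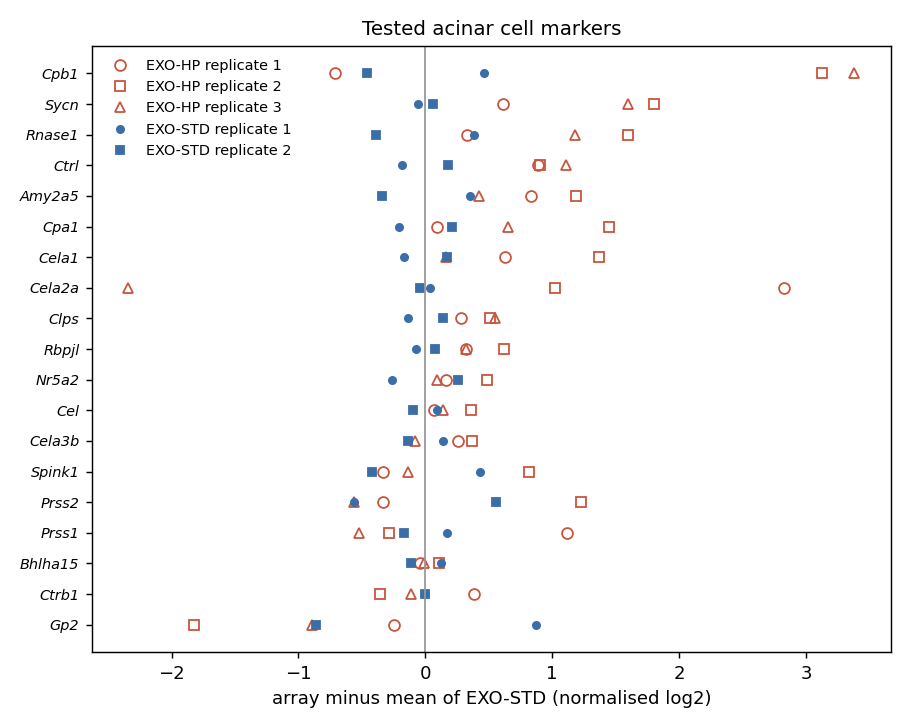
Normalised log2 signal of 19 of the 20 tested acinar genes (rows) on each array minus the EXO-STD mean (horizontal axis), red open symbols for the 3 EXO-HP arrays and blue for the 2 EXO-STD arrays. Every EXO-HP array is higher for Ctrl, Sycn, Clps, Rbpjl and Amy2a5, 5 of the 20 genes, against 15.1% of all tested probes. The same held for 5 of 15 beta cell and 4 of 11 skeletal muscle markers tested, not drawn, with smaller shares in the gut, other islet and duct lists. Over all 20 genes HP 2, drawn as squares, has the highest median, 0.72.

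Profiles like those of the Reg genes were sought among 26876 tested probes with a gene symbol, by the root mean square difference over the 5 arrays after each probe was centred on its own mean. Nearest to Reg3d were Gm14548, Gm4434, D5Ertd579e, Cd209d and Cyp46a1, at 0.047 to 0.063 on the log2 scale, all with STD 1 highest and STD 2 lowest, as in Reg3d itself. Nearest to Reg4, the member with the largest range over the arrays (5.08), were Gm2396, Agr2, Gm6189, Ugt1a6a and Gm6103, at 0.40 to 0.78. Agr2, a protein disulfide isomerase of mucus-secreting epithelia, had processed signals of 21.9 ± 6.38 and 298 ± 31.6 on STD 1 and STD 2 and 15.9 ± 5.94, 144 ± 14.9 and 24.9 ± 4.10 on HP 1, HP 2 and HP 3, so that replicate 2 of each group stood out, as for Reg4. On STD 2 its local background was 137, above 99.9% of the spots of that array, and 23.0 to 29.0 on the others.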

How the data were processed

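Per the file headers, spot intensity values came from a later version of Feature Extraction than the 9.1 in the submitters' processing notes, which also list limma. The processed intensity is background-subtracted and detrended, with surrogate values where a spot is not above background, and the software's error is an estimate per spot. The deposited value table holds log2 values (median 7.93 on each array), which rank the spots of an array as mean signal less local background does (Spearman 1.0). Its columns were all matched, leaving 0. Its direction follows the scanner signals and it is not centred at 0; how it was normalised between arrays is unknown.

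Log2 processed signals were averaged per probe without outlier spots, and each array's 75th percentile over probes usable on all arrays was subtracted. No spot was saturated (0). Of 39429 probes, 110 lacked a usable spot on some array and 7376 failed a filter that asked for 2 detected arrays in a group, which left 31943, with 3 of the 7 Reg probes among them. The EXO-HP and EXO-STD arrays entered a limma 3.58.1 fit without covariates (R 4.3.3, lmFit and eBayes), p-values were adjusted by Benjamini-Hochberg across all 31943, and 0.05 was the threshold. The number of arrays limits the precision. Fold bounds set the brighter group's mean against, per dim array, the higher of the probe's signal and the lowest signal well above background.

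RefSeq accessions named 26055 probes (66.1%) through a table of assembly GRCm38.p6. A gene was represented by its brightest tested probe. Most list genes named here were among the first 3 of their list or had groups that did not overlap. Not every such gene is named, so an unnamed gene may have groups that overlap or not. The lists were beta, acinar, duct, other islet, gut and skeletal muscle markers, and 2 lists of the Reg pathway. The values of 1 acinar gene are counted but not reported here. Members and lists were chosen with earlier results of these data known.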

Additional observations from a re-analysis of the deposited data

How the results depend on the processing

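With limma, 0 probes passed adjusted p 0.05 in the main processing and with normexp, quantile normalisation, median scaling, the authors' deposited table, either filter on dim probes, outlier spots kept, slide as a fixed or random block, and the replicate block. The arrays of slide 1 alone, a fit with fewer samples, gave 94 calls, and leaving out single arrays gave 0 to 1, the 1 call being Btbd10 without EXO-STD replicate 1. The 1797 probes at an unadjusted p under 0.05 became 1102 with normexp, 867 with quantile normalisation, 631 with the deposited table, 843 with slide as a fixed block, 1088 with the stricter filter, 983 on slide 1 and, without single arrays, 884 (without EXO-HP replicate 3) to 3452 (without EXO-HP replicate 1). The share of these higher in EXO-HP was 95.8%, against 74.6% with quantile normalisation, 83.9% with median scaling, 73.2% with the deposited table, 59.3% with slide as a fixed block and 56.4% on slide 1. Deviations of same-numbered arrays from their group means had correlations of 0.02 and -0.06. With 2 EXO-STD arrays, whose deviations mirror each other, this cannot settle whether replicate numbers pair the samples. The replicate block gave 0 calls and 1663 probes at an unadjusted p under 0.05. The 1 Reg probe detected on all arrays became 3 with the weaker criterion of a positive and significant signal, and 1 to 2 without single arrays, the 2 being without EXO-HP replicate 1. The Reg2 difference kept its sign in the 13 alternatives that gave a value, between 0.27 and 1.62. The stricter filter and leaving out EXO-HP replicate 2 or 3 gave none. These alternatives reuse the same spots and are not separate checks. The value was again 1.45 without a filter on dim probes and with outlier spots kept. It was 1.62 both with slide as a fixed block and on slide 1 alone. Reg1 turned in 1 of 15 alternatives, and Reg3d, at -0.01, in 5 of 16. Other processings of the gene lists and of the 4 untested Reg probes were chosen after seeing the data.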

Other observations

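Several genes of gut epithelium, the other main site of Reg expression, were measured in these cells, and 10 of 12 were well above background on all 5 arrays. Of the 11 tested, 6 were higher and 5 lower in EXO-HP, with a median difference of 0.00, and 0 passed the test. The split was 4 higher and 7 lower with quantile normalisation, 3 and 8 with median scaling, and 1 and 10 in the authors' deposited table. The mucin Muc2 differed by 0.45 ± 0.29 (SE) and the trefoil factor Tff3 by -0.15 ± 0.59, while Lyz1, lysozyme of Paneth cells, was well above background on 1 array. Cdx2, an intestinal transcription factor, was lower on every EXO-HP array, by -0.37 ± 0.19 (limma adjusted p = 0.952). Its relative Cdx1 and the fatty acid binding protein Fabp2 were higher on every EXO-HP array, by 0.38 ± 0.23 and 0.26 ± 0.19. Thus 1 of 11 genes was lower and 2 of 11 were higher on every EXO-HP array, against 2.74% and 15.1% of all tested probes.

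Of 6 tested duct markers, 3 were higher and 3 lower (median -0.02). The split was 1 and 5 with median or quantile scaling and in the authors' deposited table. Of 6 tested markers of other islet cells, 4 were higher and 2 lower (median 0.12, which was -0.05 with median scaling). Sst, somatostatin, was higher on every EXO-HP array by 0.52 ± 0.22 (limma adjusted p = 0.901). It was 1 of these 6 genes to be so, against 15.1% of all tested probes. Of 15 beta cell markers, 12 were higher (median 0.15), a count that was 7 with median scaling (median -0.03). Of 11 tested skeletal muscle markers, 11 were higher (median 0.54), with medians of 1.18, 0.45 and 0.12 on EXO-HP replicates 1, 2 and 3. The count was 10 with normexp (median 0.23), 9 with median scaling (0.36), 8 with quantile normalisation (0.47), 8 in the authors' deposited table (0.21) and 8 without EXO-HP replicate 1 (0.34), and 2 of the 11 passed the filter on dim signals only through EXO-HP. None of the genes in these lists passed the test (0 with limma).

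The 9-letter motif TTCNNNGAA, the core of a STAT site, which reads the same on both strands, was searched in 300 bases of RefSeq promoter (250 before to 50 after the start, GRCm38.p6) of all 7 Reg genes. It was present in the promoters of Reg3b and Reg3d, 2 of 7, and in 8.3% of 32851 promoters. A match of letters is not a binding site.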
